A study of Rattus norvegicus with 22 samples.

Results

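Fosl1 and Zfp36 were followed through the cortex of rats 24 h after a penetrating ballistic brain injury (PBBI). They are 2 of 32545 gene identifiers in the count table, of which 23572 had counts in at least 1 library and 1822 could be paired with a gene name. Both were chosen by their ipsilateral PBBI against sham fold changes in earlier results of the same libraries, so their ipsilateral values are given as a description with no test. Fosl1 is listed as ENSRNOG00000020552 with 1663 bases of exon and Zfp36 as ENSRNOG00000058388 with 1843 bases.

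RNA came from cortical tissue of 11 adult male Sprague-Dawley rats, 6 with PBBI and 5 sham operated. Each rat gave 1 library from the injured (right, ipsilateral) hemisphere and 1 from the contralateral hemisphere. Sample titles carry the code PFC for both libraries of PBBI rat 81 and the contralateral library of sham rat 82, and CC or CI for all others. Whether the dissection differed is not given in the titles. The 4 groups were ipsilateral PBBI (n = 6), ipsilateral sham (n = 5), contralateral PBBI (n = 6) and contralateral sham (n = 5). PBBI rats received a probe through a right frontal craniectomy with a balloon that was rapidly inflated and deflated, and sham rats went through the same surgery without the probe. All rats, sham included, carried recording electrodes, so no group was free of surgery. Libraries held between 42085341 and 63412426 counts: 58567420 to 63412426 in ipsilateral PBBI, 42085341 to 60757358 in ipsilateral sham, 55912129 to 62939241 in contralateral PBBI and 48658467 to 61682289 in contralateral sham. Even numbers were over-represented among low counts in every library (60.8% to 69.6% of counts from 1 to 19), and the count of Fosl1 was even in 17 of 22 libraries and that of Zfp36 in 14 of 22. None of 8 neuronal markers could be paired with a name. Astrocyte markers were present in all 22 libraries, but they cannot tell cortex from other brain tissue, so the cortical label was not checked.

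Fosl1 encodes FRA-1, a Fos-family subunit of AP-1, the transcription factor that forms when a Fos protein pairs with a Jun protein on DNA. FRA-1 lacks the strong activation domain of c-Fos, is usually low in resting tissue and is induced later than c-Fos by growth factor, stress and wound signals. Zfp36 encodes tristetraprolin, a zinc finger protein that binds AU-rich elements of cytokine and other short-lived mRNAs and brings in the deadenylation machinery, which shortens their life. Zfp36 is itself an immediate early gene in macrophages, fibroblasts and other cells, and the kinase MAPKAPK2 restrains its protein by phosphorylation. Protein and phosphorylation were not measured here.

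The sequence before each start site is shown because both genes are known to be switched on by signals that act there. RefSeq promoters of the assembly GRCr8 were matched by symbol for both genes, and this assembly differs from the Rnor 6.0 annotation behind the counts. Each line below holds the 250 bases before the annotated start, 5′ to 3′ on the gene's own strand, in lower case with motif matches in capitals. Fosl1 lies at chr1:212183635-212183884 on the plus strand and Zfp36 at chr1:92799109-92799358 on the minus strand.
Fosl1: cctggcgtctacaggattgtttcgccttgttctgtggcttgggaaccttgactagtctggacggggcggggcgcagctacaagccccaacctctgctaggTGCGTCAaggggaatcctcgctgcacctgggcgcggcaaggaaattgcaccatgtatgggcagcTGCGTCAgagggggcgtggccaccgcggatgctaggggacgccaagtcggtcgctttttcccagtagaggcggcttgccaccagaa
Zfp36: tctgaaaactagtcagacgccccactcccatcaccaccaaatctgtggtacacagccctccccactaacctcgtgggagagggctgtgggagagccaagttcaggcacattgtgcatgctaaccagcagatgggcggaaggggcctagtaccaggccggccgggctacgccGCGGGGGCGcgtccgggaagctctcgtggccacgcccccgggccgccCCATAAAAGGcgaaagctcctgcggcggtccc
Capitals in the Fosl1 line mark TGCGTCA, present from 150 to 144 and from 86 to 80 bases before the start. This near match to a cyclic AMP response element was added as a motif after the sequence had been read, and 1.84% of 27457 RefSeq promoters of the same length held it on either strand. Capitals in the Zfp36 line mark an EGR motif (GCGNGGGCG, from 79 to 71 bases before the start, in 4.53% of promoters) and a CArG box, the motif of serum response factor (from 32 to 23 bases before the start, in 1.5% of promoters). The AP-1 motif TGANTCA (6.36% of promoters), the response element TGACGTCA (1.7%), the NF-kB motif (3.52%) and TATAAA (13.1%) were searched on both strands and had no match in either line. The GC content was 62.0% for Fosl1 and 65.2% for Zfp36 against a median of 52.0% over all promoters. Letter matches describe these windows only, and no binding was measured.

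Fosl1 was barely counted in uninjured cortex and was high in every injured cortex. In CPM, counts scaled to a common library size by TMM over the 22 libraries, the 6 ipsilateral PBBI libraries stood at 20.3 in rat 81 (1297 counts), 13.6 in rat 90 (947 counts), 9.98 in rat 88 (694 counts), 4.74 in rat 85 (210 counts), 4.72 in rat 96 (349 counts) and 1.18 in rat 83 (80 counts). The 5 ipsilateral sham libraries stood at 0.494 CPM in rat 84, 0.405 in rat 82, 0.267 in rat 86, 0.115 in rat 94 and 0.0317 in rat 91, from 26, 22, 10, 7 and 2 counts. No injured library overlapped the sham libraries, and the lowest injured rat, rat 83, was 2.38-fold above the highest sham rat. Over all genes tested in that contrast, 3.5% had every PBBI library above every sham library. The injured rats themselves spanned 17.3-fold, which gave 9.08 ± 7.04 CPM (SD, n = 6) against 0.263 ± 0.193 (SD, n = 5) in sham.

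Zfp36, which had 81 to 368 counts in ipsilateral sham libraries, was also higher in CPM in all 6 injured cortices, by a smaller factor. Ipsilateral PBBI libraries stood at 70.9 CPM in rat 81 (4523 counts), 47.8 in rat 90 (3338 counts), 43.3 in rat 88 (3010 counts), 19.2 in rat 96 (1418 counts), 9.35 in rat 83 (636 counts) and 8.22 in rat 85 (364 counts). Ipsilateral sham libraries stood at 6.06 CPM in rat 94, 4.52 in rat 91, 3.98 in rat 82, 3.04 in rat 84 and 2.17 in rat 86. In CPM the groups did not overlap, and 3.5% of all genes tested had every PBBI library above every sham library. Rats 85 and 83 lay close to sham, and the lowest injured library was 1.36-fold above the highest sham library. That separation rested on the TMM scaling, since rat 85 had 364 counts in 62672856 and sham rat 94 had 368 in 60395227. Means were 33.1 ± 25.0 CPM (SD, n = 6) and 3.95 ± 1.48 CPM (SD, n = 5). In bulk tissue, more cells that express a gene and more RNA per cell cannot be told apart.

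**Figure D1:**
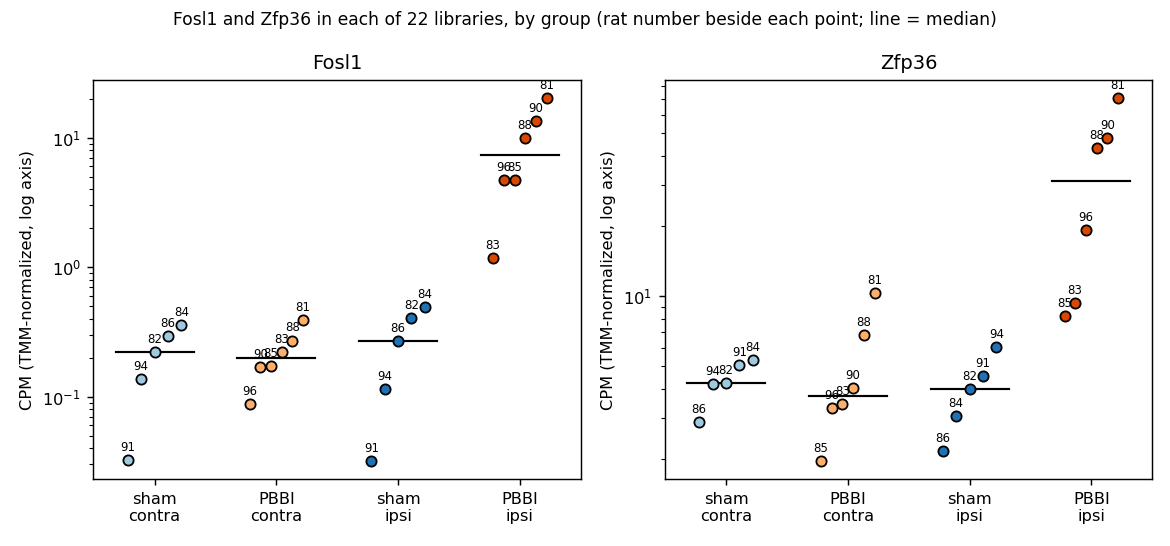
Level of Fosl1 (left) and Zfp36 (right) in CPM on a log axis in each of the 22 libraries, with the rat number beside each point and the group median as a line. The 6 ipsilateral PBBI points lie above all sham points for both genes, and the other 3 groups overlap.

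In the fit over 16104 ipsilateral genes, the log2 fold change of PBBI over sham was 5.11 (SE 0.838) for Fosl1 and 3.06 (SE 0.584) for Zfp36, or 34.6-fold and 8.36-fold. These placed Fosl1 at rank 37 and Zfp36 at rank 197 by fold among all genes fitted, whose median log2 fold change was -0.02. In that contrast 48.3% of genes had a fold change above 0, and 4.68% passed an adjusted p of 0.05, 4.09% in the upward direction (edgeR's quasi-likelihood test, Benjamini-Hochberg), a background from which nothing is read here because the same contrast had picked both genes.

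On the contralateral side neither gene differed between PBBI and sham beyond the spread between rats. Fosl1 stood at 0.391 CPM in rat 81, 0.272 in rat 88, 0.223 in rat 83, 0.173 in rat 85, 0.171 in rat 90 and 0.0870 in rat 96, from 5 to 24 counts. Contralateral sham libraries stood at 0.360 CPM in rat 84, 0.292 in rat 86, 0.222 in rat 82, 0.138 in rat 94 and 0.0324 in rat 91, from 2 to 22 counts. Only rat 81 lay above every sham rat, and over all genes 0.0943% had all PBBI rats above and 0.0692% all PBBI rats below sham. The log2 fold change was 0.07 (SE 0.520), which is above 0 as for 48.8% of all genes, with an adjusted p of 1 in edgeR's quasi-likelihood test and p = 0.719 in a two-sided exact permutation test over all splits of the 11 rats, whose smallest possible p is 0.00216. An interval of 2 SE ran from -0.97 to 1.11, so contralateral changes of either sign within it could not be told from no change with these rats. Its sign turned when PBBI rat 81 (-0.18), PBBI rat 88 (-0.0017), sham rat 91 (-0.20) or sham rat 94 (-0.03) was left out.

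Contralateral Zfp36 stood at 10.3 CPM in rat 81, 6.83 in rat 88, 4.01 in rat 90, 3.45 in rat 83, 3.31 in rat 96 and 1.95 in rat 85. The sham rats stood at 5.31 CPM in rat 84, 5.07 in rat 91, 4.23 in rat 82, 4.18 in rat 94 and 2.88 in rat 86. Rats 81 and 88 lay above every sham rat and rat 85 below every sham rat, so the injured rats spread to either side of sham. The log2 fold change was 0.21 (SE 0.373, interval of 2 SE from -0.54 to 0.95), with an adjusted p of 1 in edgeR and p = 0.955 in the exact permutation test. Without rat 81 it was -0.15. Over the 15907 genes of this contrast 0% passed the adjusted threshold in edgeR and 2.3% (366 genes) had an unadjusted p under 0.05, while DESeq2 called 3 genes and weighted voom 1 gene after adjustment, neither gene among the 366.

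Ordered by mean CPM, Fosl1 ran from ipsilateral PBBI through ipsilateral sham and contralateral PBBI to contralateral sham. By mean log2 CPM, contralateral PBBI (-2.08) and ipsilateral sham (-2.10) changed places. Zfp36 ran from ipsilateral PBBI through contralateral PBBI and contralateral sham to ipsilateral sham. For Fosl1 mean log2 CPM was 4.80 higher in ipsilateral PBBI than in ipsilateral sham, with no overlap. The lower 3 groups overlapped one another. For Zfp36 the gap in mean log2 CPM between ipsilateral and contralateral PBBI was 2.50. These 2 groups overlapped because contralateral rat 81 (10.3 CPM) was above ipsilateral rats 83 and 85.

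Within each injured rat the injured side was the higher side for both genes. The ipsilateral level of Fosl1 was 79.4-fold the contralateral level in rat 90, 54.3-fold in rat 96, 51.9-fold in rat 81, 36.8-fold in rat 88, 27.4-fold in rat 85 and 5.28-fold in rat 83. For Zfp36 the same ratio was 11.9 in rat 90, 6.86 in rat 81, 6.34 in rat 88, 5.80 in rat 96, 4.21 in rat 85 and 2.71 in rat 83. Rat 90 had the widest and rat 83 the narrowest difference for both genes. In sham rats the sides were close: Fosl1 was higher ipsilaterally in 2 of 5 rats with log2 differences from -0.20 to 0.78, and Zfp36 in 1 of 5 with differences from -0.80 to 0.53.

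**Figure D2:**
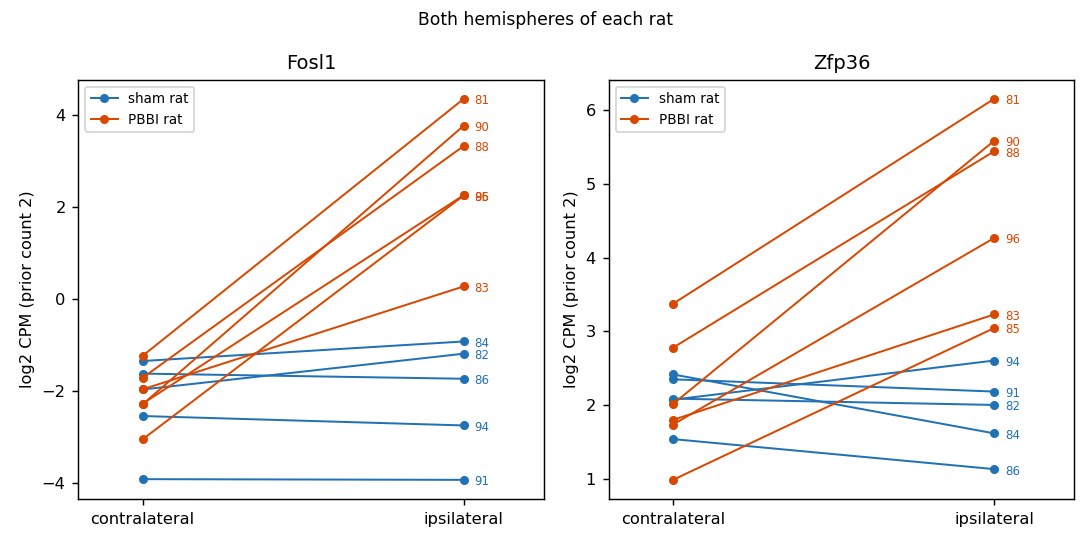
Log2 CPM of Fosl1 (left) and Zfp36 (right) in the contralateral and ipsilateral hemisphere, with 1 line per rat. All 6 PBBI lines climb toward the injured side and the 5 sham lines are flat or of mixed slope.

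The fitted log2 difference between hemispheres in PBBI rats was 5.36 (SE 0.653) for Fosl1 and 2.73 (SE 0.574) for Zfp36, and with each rat as a replicate block it was 5.08 (SE 0.512) and 2.53 (SE 0.264). In sham rats it was 0.31 (SE 0.685) for Fosl1 and -0.13 (SE 0.290) for Zfp36, and 0.27 (SE 0.375) and -0.18 (SE 0.204) in the paired fit. The injury effect on the ipsilateral side exceeded that on the contralateral side by 5.04 (SE 0.955) for Fosl1 and 2.86 (SE 0.691) for Zfp36 on the log2 scale, and by 4.80 (SE 0.643) and 2.70 (SE 0.355) with the rat as a replicate block. These differences include the libraries that picked the genes and carry no test.

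The balance between Fosl1 and Zfp36 mRNA was described by their ratio in each library. Per kilobase of exon, Zfp36 was 1.56 to 7.17 times the level of Fosl1 in ipsilateral PBBI libraries, with a median of 3.42. The ratio was 10.2 to 34.3 in contralateral PBBI (median 22), 5.55 to 128.6 in ipsilateral sham (median 8.86) and 8.91 to 141.2 in contralateral sham (median 17.1). The ratios of ipsilateral PBBI overlapped those of ipsilateral sham. The highest ratio of either sham group was that of rat 91, where Fosl1 had 2 counts on each side. Mean levels per kilobase were 5.46 CPM for Fosl1 and 18.0 CPM for Zfp36 in ipsilateral PBBI, and 0.158 CPM and 2.14 CPM in ipsilateral sham.

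Among the 6 injured cortices, rats high in Fosl1 were largely the rats high in Zfp36. On the log2 CPM scale Pearson's r was 0.878 and Spearman's rho 0.83 over 6 rats, given without a test because these libraries had chosen both genes. Without rats 83 and 81, the rats farthest from the median of Fosl1, r was 0.890. Rat 85 lay off the common line, with Fosl1 at 4.74 CPM close to rat 96 and Zfp36 the lowest of the 6. Such an r was not particular to this pair: among 658 genes called higher ipsilaterally 16.0% reached that r with Fosl1 and 16.9% with Zfp36. Over all 16103 other genes tested ipsilaterally the shares were 1.66% and 3.86%. On the contralateral side of the same rats r was 0.726 (exact permutation p = 0.103, adjusted 0.137 over 4 relations computed) and rho 0.714 (exact permutation p = 0.136, adjusted 0.181). The other relations in that adjustment used ipsilateral libraries and are given here without a test, so the adjusted values depend on them. Without rats 96 and 81 r was 0.762, and without rat 81 alone it was 0.457.

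Zfp36 on the injured side was compared with Zfp36 on the opposite side of the same rats, a relation added after the values had been seen. As a description, its r was 0.861 and rho 0.886, and without rats 85 and 83 r was 0.817. Rat 81 was highest and rat 85 lowest on both sides. For Fosl1, r between the sides was 0.368 and rho 0.429.

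**Figure D3:**
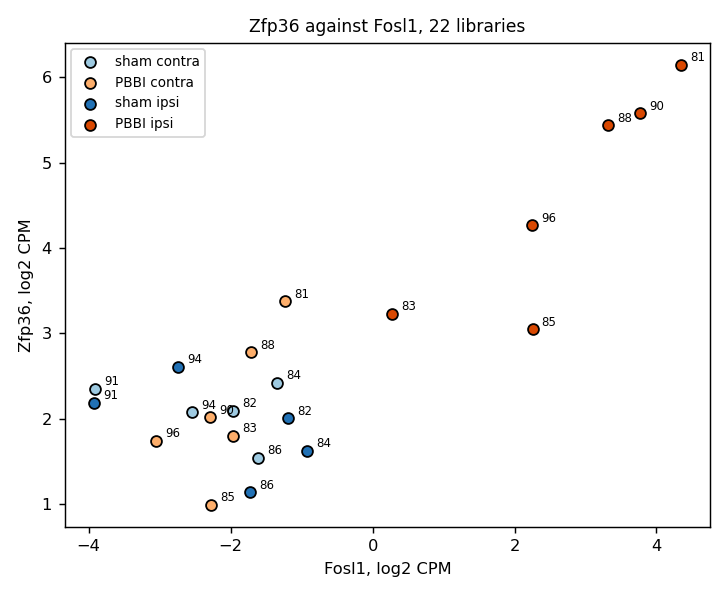
Log2 CPM of Zfp36 against log2 CPM of Fosl1 in the 22 libraries, colored by group, with rat numbers. The 6 ipsilateral PBBI libraries lie to the upper right, with rat 85 below the line of the others and rat 83 nearest to the remaining libraries.

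Other AP-1 genes were examined as the possible partners and relatives of FRA-1. Of 21 AP-1 genes listed, 7 besides Fosl1 could be paired with a name. Names came from tables of genes that the study had called on these samples, so ipsilateral counts of listed genes are not independent evidence of their direction. The contralateral libraries came from the same rats, so all genes are not a matched background for contralateral counts of listed genes either. Ipsilaterally 2 of 7 passed the adjusted threshold upward in edgeR, against 4.09% of all genes, with a median log2 fold change of 2.55 against -0.02 over all genes. Without single rats the number was 1 to 5, with 5 without PBBI rat 83, 4 without PBBI rat 85 and 1 without any other rat. Those that passed were Maff, a small Maf protein without an activation domain, at 28.4 ± 15.4 against 3.06 ± 1.56 CPM (log2 3.22), and Batf3, a leucine zipper factor of dendritic cells, at 1.83 ± 1.88 against 0.290 CPM (log2 2.65; SD, n = 6 and 5).

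The remaining 5 did not pass in this edgeR fit, although their names too came from the study's calls. Fosb, a Fos protein induced by neuronal activity, stood at 39.5 ± 38.3 CPM in ipsilateral PBBI and 8.25 ± 1.66 CPM in sham (log2 2.26). Its injured rats split, with 90.2 CPM in rat 81, 76.7 in rat 90, 49.0 in rat 88 and 16.3 in rat 85 above the sham range of 6.5 to 10.3 CPM, and 2.92 in rat 83 and 1.87 in rat 96 below it. Jun, the common partner of Fos proteins, stood at 168 ± 80.9 against 73.4 ± 19.4 CPM (log2 1.19). Atf3, a stress-induced factor that pairs with Jun, was highest in rat 85 (92.5 CPM) and had a log2 fold change of 2.64. Batf and Mafk had values of 2.55 and 0.87.

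The rats thus did not keep a common order across the family. Maff, like Atf3, was highest in rat 85 at 46.6 CPM, where Fosl1 was 4.74 CPM and Zfp36 was at its lowest. For Maff this rested on the TMM scaling, as rat 85 had 2064 counts against 2845 in rat 88 and 2213 in rat 90. Atf3 also had the most counts in rat 85 (4095, against 3455 in rat 81). So did Batf3 (249 counts, 5.63 CPM, against 0.617 to 1.39 CPM in the other injured rats) and Batf (156 counts, 3.52 CPM). Fosl1 in rat 96 (4.72 CPM, 349 counts) was close in CPM to that in rat 85 (210 counts). Fosb in rat 96 was the lowest of all ipsilateral libraries. Rat 83 was lowest for Fosl1, Maff, Atf3 and Jun among the injured.

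Per kilobase, Fosl1 was the least abundant of the 8 named AP-1 genes in the 3 groups without injury at the sampled side, where it made up 0.345% to 0.449% of their summed level. In ipsilateral PBBI it was the sixth of 8 and made up 4.89%. Jun was the most abundant of the 8 in all 4 groups.

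Contralaterally 0 of these 7 genes passed the adjusted threshold in edgeR. At an unadjusted p under 0.05, 2 were lower in PBBI (Fosb and Jun) and 0 higher, against 1.02% of all genes lower and 1.28% higher. Both were picked by that p in these same libraries. The permutation p, library counts and fits without single rats below reuse those values and add no independent support. The share of all genes with 4 of 6 PBBI libraries below every sham library was not computed. Contralateral Fosb stood at 8.11, 6.95, 4.6, 4.03, 3.50 and 3.01 CPM in PBBI rats 90, 83, 88, 81, 96 and 85, and at 12.8, 11.7, 11.6, 7.10 and 4.99 CPM in sham rats 84, 82, 86, 91 and 94. Of the 6 PBBI libraries 4 lay below every sham library. Its log2 fold change was -0.94 (SE 0.310, unadjusted p = 0.00925, adjusted p = 1 in edgeR; exact permutation p = 0.0325), and without single rats the unadjusted p in edgeR ran from 0.00274 to 0.0334. For Jun, contralateral levels were 52.2 to 67.7 CPM in PBBI and 65.3 to 87.6 CPM in sham, with 4 of 6 PBBI libraries below every sham library and a log2 fold change of -0.33 (SE 0.140, unadjusted p = 0.0331, adjusted p = 1 in edgeR; exact permutation p = 0.0195). The unadjusted p for Jun was over 0.05 in the fits that left out 81, 83, 88 or 96 of the PBBI rats and in those that left out 84, 86 or 94 of the sham rats.

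**Figure D4:**
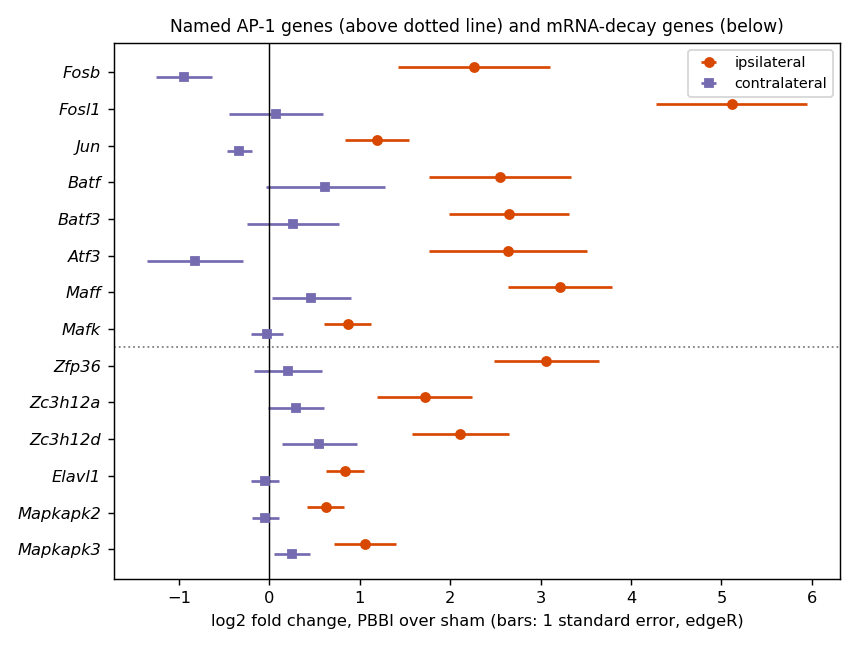
Log2 fold change of PBBI over sham with 1 SE for the named AP-1 genes (above the dotted line) and mRNA-decay genes (below it), ipsilateral as circles and contralateral as squares. Ipsilateral values run from 0.62 (Mapkapk2) to 5.11 (Fosl1), and contralateral values lie around 0, with Fosb lowest at -0.94.

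Genes of AU-rich mRNA decay were the relatives of Zfp36 examined next. Of 30 listed, 5 besides Zfp36 had a name. Against 4.09% of all genes, 2 of 5 passed upward ipsilaterally (Zc3h12d, an RNase related to regnase, log2 2.11, and Elavl1, the mRNA-stabilizing protein HuR, log2 0.84), and 0 of 5 passed without any single rat other than PBBI rats 83 and 85, without either of which 4 passed. The values of the others were 1.72 for Zc3h12a (the RNase regnase-1), 1.06 for Mapkapk3 and 0.62 for Mapkapk2, the kinases that phosphorylate tristetraprolin. The median was 1.06. Contralaterally 3 were above and 2 below sham with a median of 0.25, and 0 of 5 had an unadjusted p under 0.05 or passed after adjustment in edgeR. Per kilobase Zfp36 was the fourth of the 6 named genes of this list in the 3 groups without injury at the sampled side. There it made up 6.66% to 7.80% of their summed level, and in ipsilateral PBBI it was the second at 25.7%. The 6 include the stabilizer Elavl1 and the kinases Mapkapk2 and Mapkapk3, so these are not shares of decay factors alone.

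Known target mRNAs were tallied for each factor. Of 28 genes listed as tristetraprolin targets 14 had a name, and 11 of 14 passed upward ipsilaterally, against 4.09% of all genes, with a median log2 fold change of 3.33 against -0.02. As these names came from the study's calls, nothing is read from that count. Among the most abundant by mean CPM over the 22 libraries were Ptgs2 (cyclooxygenase 2; 242.1 ± 162 against 50.6 ± 9.76 CPM, log2 2.26), Ccl2 (a monocyte chemokine; 185.6 ± 130 against 1.48 ± 1.38 CPM, log2 6.96) and Ccnd1 (cyclin D1; 79.8 ± 36.3 against 27.7 ± 4.61 CPM, log2 1.53). Their means were higher in the group in which Zfp36 was higher, and decay rates were not measured. Leaving out single rats gave 5 to 13 of 14, with the lowest number without sham rat 82 or 86 and 6 without sham rat 84 or 91. Contralaterally 13 could be tested, with 8 above and 5 below sham, a median of 0.23, 1 (Ccl2) higher at an unadjusted p under 0.05 and 0 after adjustment in edgeR.

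Of 26 genes listed as FRA-1 or AP-1 targets, which include Ccl2 and Ccnd1 as well, 19 had a name and 16 of 19 passed upward ipsilaterally, against 4.09% of all genes, with a median of 3.59 against -0.02. By mean CPM over the 22 libraries the most abundant were Vim (the intermediate filament vimentin; 524 ± 174 against 70.5 ± 19.5 CPM, log2 2.89), Spp1 (osteopontin; 615 ± 503 against 19.6 ± 19.8 CPM, log2 4.97), Timp1 (a metalloproteinase inhibitor; 224.8 ± 134 against 5.41 ± 2.65 CPM, log2 5.37) and Hmox1 (heme oxygenase; 181.2 ± 163 against 5.38 ± 1.67 CPM, log2 5.07). Leaving out single rats gave 11 to 18 of 19. Contralaterally 15 were above and 4 below sham with a median log2 fold change of 0.56 against -0.01 over all genes. Of the 19, 6 (Timp1, Cd44, Vim, Ccl2, Spp1 and Hmox1) were higher at an unadjusted p under 0.05, against 1.28% of all genes, and 0 passed after adjustment in edgeR. Because the names came from the study's calls on the same rats, nothing is read from this count or median against all genes. Timp1 had a log2 fold change of 2.19 (unadjusted p = 0.00218, adjusted p = 1 in edgeR). The 6 became 2 without PBBI rat 81, 3 without sham rat 86, and 4 when PBBI rat 88 was left out, as when sham rat 94 was.

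Contralateral PBBI rat 81 also had the highest summed astrocyte markers on that side, 4503 CPM, followed by rat 88 at 3404 CPM, against 574.1 to 1311 CPM in contralateral sham. Vim is in that marker list as well. Summed microglia or macrophage markers were also highest on that side in rat 81 (87.0 CPM) and rat 88 (80.2 CPM), against 46.9 to 66.1 CPM in contralateral sham. Among contralateral PBBI libraries these rats had the highest Zfp36 and Fosl1, and the part of these cell types in those values was not tested.

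Other immediate early genes were listed because Zfp36 and Fosl1 are induced alongside them. Of 24, 6 had a name and 3 (Dusp5, Myc and Gadd45b) passed upward ipsilaterally, against 4.09% of all genes, or 1 to 4 without single rats, with 1 when any sham rat was left out and when PBBI rat 81 or 88 was. Their median log2 fold change was 1.84. Dusp5, a nuclear ERK phosphatase, stood at 33.2 ± 31.8 against 3.04 ± 1.20 CPM (log2 3.45), and Gadd45b, a stress-response gene, at 49.7 ± 32.8 against 13.0 ± 2.86 CPM (log2 1.93). Ier3 (log2 1.67) and Klf6 (log2 1.30) did not pass. Contralaterally 2 were above and 4 below sham, the median was -0.09, and 0 of 6 had an unadjusted p under 0.05 or passed after adjustment in edgeR.

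Markers of other cells were summed beside these results. Summed CPM of the 6 named microglia or macrophage markers (of 12) was 72.7 to 332.1 in ipsilateral PBBI and 42.8 to 63.9 in ipsilateral sham. Within that list Tmem119, a marker of resting microglia, stood lower in PBBI, at 16.7 ± 6.52 against 31.6 ± 6.30 CPM (log2 -0.92), and did not pass. The 7 named neutrophil markers (of 10) summed to 12.0 to 215.5 CPM against 5.61 to 51.9 CPM, with overlap between the groups and Elane at 0 in all ipsilateral sham libraries, and 1 of the 5 that could be tested (Il1r2) passed upward. The 4 named astrocyte markers (of 8) summed to 2223 to 7416 CPM against 461 to 1037 CPM. That sum was mostly Gfap and Vim, whereas Aldh1l1 passed downward (log2 -0.96) and Gjb6 had a log2 fold change of -1.53 and did not pass. The endothelial marker Vwf (1 of 7 named) stood at 23.3 to 49.4 against 10.4 to 19.7 CPM, and Ptgds, the named fibroblast or meningeal marker (1 of 7), at 80.2 to 594.8 against 390.3 to 867.7 CPM, which did not pass. No oligodendrocyte (of 7) or erythrocyte marker (of 5) had a name.

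Among the injured rats, macrophage markers were highest in rat 81 (332.1 CPM) and rat 90 (239.5 CPM), as Fosl1 and Zfp36 were, and lowest in rat 85 (72.7 CPM), where Zfp36 was lowest. Neutrophil markers were also highest in rat 81 (215.5 CPM), and were lowest in rat 83 (12.0 CPM), where Fosl1 was lowest. Between these the order differed, with rat 85 the second at 174.2 CPM and rat 90 the fifth at 25.9 CPM. Astrocyte markers were highest in rat 96 (7416 CPM) and stood at 3805 CPM in rat 81, where both genes peaked. The part of each cell type in the levels of Fosl1 and Zfp36 was not tested.

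**Figure D5:**
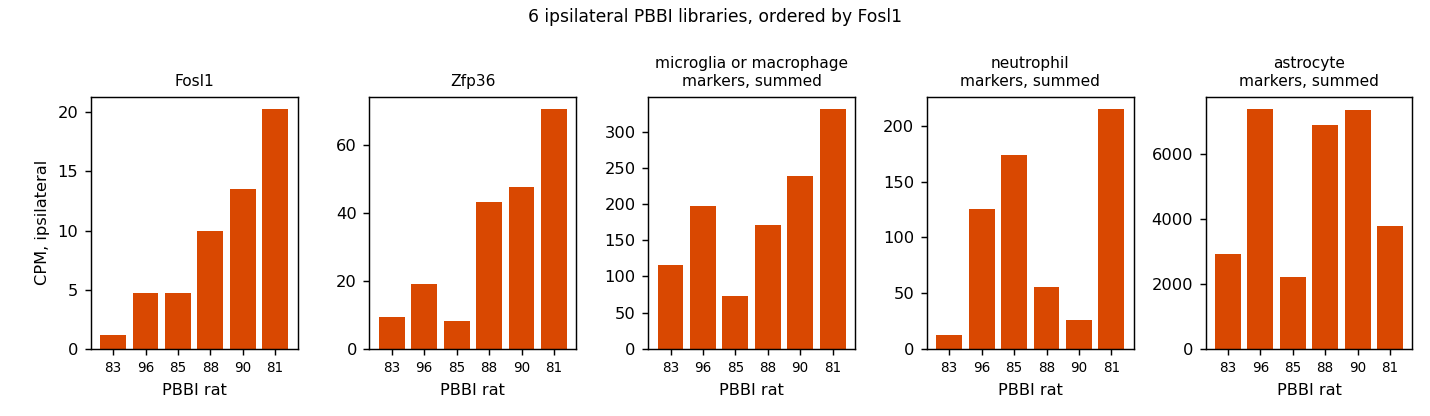
Ipsilateral CPM in the 6 PBBI rats, ordered by Fosl1, for Fosl1, Zfp36 and the summed microglia or macrophage, neutrophil and astrocyte markers, with bars starting at 0. Macrophage and neutrophil markers peak in rat 81, as both genes do. Neutrophil markers are lowest in rat 83 and also low in rats 88 and 90. Astrocyte markers are highest in rats 96 and 90.

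The genes most like each gene over the 22 libraries were ranked by Pearson's r of log2 CPM among 16586 other genes, as a description, since all points share the difference between injured and uninjured tissue. For Fosl1 the leading genes were Aen, a p53-induced nuclease (r = 0.960), the membrane protein Emp1 (0.953), the monocyte chemokine Ccl7 (0.950), the calcitonin gene-related peptide Calcb (0.942) and Sprr1a, a gene of regenerating neurons (0.941). For Zfp36 they were Icam1, the adhesion molecule that leukocytes bind (r = 0.981), the ternary complex factor Elk3 (0.964), the membrane linker moesin, Msn (0.962), the apoptosis gene Bak1 (0.961) and Lrrfip2 (0.961). Zfp36 was at rank 200 for Fosl1 (r = 0.855), and Fosl1 at rank 304 for Zfp36. With group means subtracted, Icam1 had r = 0.957 with Zfp36 and was again the leading gene, and Aen had r = 0.818 with Fosl1 behind 4 genes without a name, while Zfp36 dropped to rank 681 for Fosl1 (r = 0.464) and Fosl1 to rank 4113 for Zfp36.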

How the data were processed

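Total RNA from both hemispheres of 11 rats had been depleted of ribosomal RNA and sequenced as stranded paired-end libraries. The authors deposited raw counts per gene on Ensembl Rnor 6.0, without normalization, and the submitters' processing notes name STAR 2.4.2a and featureCounts 1.4.3-p1. Handling of strand and of multiply aligned reads was not given in the sources used here, nor which rats shared a surgery week. Counts are not independent molecules. The 22 columns were matched to samples by title, and 0 columns were left unmapped.

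Both genes, the gene lists and the tests were chosen with earlier results of these data known. The named genes are both genes, every named AP-1 and decay gene, the 4 most abundant of each further list and the 5 genes most alike over 22 libraries, except 1 gene that is not reported here. Other listed genes named for passing a threshold, and the accounts of Fosb, Jun, Atf3, Maff, Batf and Batf3 by rat, were chosen after values were seen.

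Each hemisphere was fitted separately with edgeR 4.0.16 in R 4.3.3 (filterByExpr, TMM, quasi-likelihood test, Benjamini-Hochberg at 0.05), and both genes passed the filter on each side. SE was taken from the F statistic. Log2 CPM used a prior count of 2. Rat numbers in the labels pair the hemispheres. Deviations from group means correlated at 0.246 to 0.758 between the sides in 11 rats, but mismatched pairs were not compared, so the pairing was not checked. Single values were tested by two-sided exact permutation. Alternatives were DESeq2 1.42.0, voom with quality weights (limma 3.58.1), other filters and scaling, all 22 libraries fitted jointly, a replicate block and leaving out each rat. The fits were tested on simulated data. P-values measure the spread between rats.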

Additional observations from a re-analysis of the deposited data

How the results depend on the processing

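The ipsilateral log2 fold changes kept their sign in every alternative run, at 4.71 to 5.48 for Fosl1 and 2.69 to 3.29 for Zfp36 when single rats were left out, as did the hemisphere differences in PBBI rats (5.15 to 5.59 and 2.54 to 2.83) and that of Fosl1 in sham rats (0.12 to 0.45). For Zfp36 in sham rats it ran from -0.35 to 0.032, turning sign without sham rat 84. The contralateral sign was not stable. With weighted voom it was -0.56 for Fosl1 and -0.047 for Zfp36, and leaving out single rats gave -0.20 to 0.39 and -0.15 to 0.37, Zfp36 turning without PBBI rat 81. The filter of at least 10 counts in every library gave no contralateral value for Fosl1. Genes called contralaterally numbered 3 with DESeq2, 1 with voom and 0 to 1 without single rats. Genes called ipsilaterally numbered 753, against 1702 with DESeq2, 5014 with voom, 1655 with all 22 libraries fitted jointly and 316 (without sham rat 91) to 2186 (without PBBI rat 85) without single rats. The cause was not tested. The replicate block turned no sign. The ipsilateral r of Fosl1 with Zfp36 ran from 0.820 to 0.989 (0.874 without rat 88 and 0.859 without rat 90), and the contralateral r from 0.457 to 0.892. Fosl1 had 2 to 26 counts per library outside the injured cortex.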
